A study of Mus musculus with 7 samples.

Results

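Accessible chromatin was described at 10 genes of the cellular response to low oxygen: the regulators Hif1a, Epas1 and Egln3 and the target genes Vegfa, Adm, Slc2a1, Car9, Bnip3, Ndrg1 and Bhlhe40. Regions of 2 peak lists, for Dll1+ and for Dll1- mammary tumor cells, were merged into 119215 union regions, and each was given to the protein-coding gene with the transcription start site (TSS) nearest to its midpoint. The 10 genes received 212 of these regions. Assignment by distance does not show which gene a region controls.

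The assay was ATAC-seq, in which a transposase cuts open DNA and tags it for sequencing. The 7 samples came from 4 tumors of mice with spontaneous tumors driven by MMTV-PyMT, a transgene in which a mammary-active viral promoter expresses the polyomavirus middle T oncogene. Both groups also carried Dll1-mCherry, a transgene that reports activity of Dll1, which encodes a ligand of Notch receptors. Cells with CD45, CD31 or Ter119 on their surface had been removed, and the remainder was sorted into mCherry+ (Dll1+, 3 samples) and mCherry- (Dll1-, 4 samples) cells. The fourth tumor gave Dll1- cells only, so its share in the Dll1- list and the reporter state cannot be told apart there. Ages of the mice are not given in the labels. The authors pooled the replicates of each group, so each value below is 1 value per list with no spread between samples and no test. In such pooled cells, fewer cells with an open site and a site less open in each cell cannot be told apart.

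The lists had 132872 rows for Dll1+ and 148923 for Dll1-. Both are relative to their own depth: the lowest background at a summit was 3.74 reads for Dll1+ and 7.20 for Dll1-, and the median summit held 43 and 61 reads. Strength was therefore compared as a rank, the percentile of a region's highest fold enrichment (reads at the summit over local background) among all rows of its own list. A difference is given in percentile points as Dll1+ minus Dll1-, and 20 points or more was called a shift. The cells were checked against marker promoters, and 7 of 7 luminal epithelial promoters were in each list, at percentiles from 55.7 to 92.9 in Dll1+ and from 63.3 to 95.1 in Dll1-. Of the basal epithelial promoters, 1 of 4 was present in each list, and those of Krt5, Krt14 and Trp63 were absent from both. Immune promoters numbered 0 of 7 in Dll1+ and 1 of 7 in Dll1- (Csf1r, percentile 76.0), endothelial promoters 1 of 6 in each list, fibroblast promoters 1 of 6 and 3 of 6, and erythroid promoters 1 of 3 in each, and the part of such cells in the results below was not tested.

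When oxygen is plentiful, prolyl hydroxylases such as the product of Egln3 mark the alpha subunits of hypoxia-inducible factor (HIF) for degradation through the von Hippel-Lindau protein. When oxygen falls, the alpha subunits encoded by Hif1a and Epas1 persist, pair with ARNT and bind a short core sequence, ACGTG or GCGTG, in the control regions of target genes. Poorly perfused solid tumors are a classic setting of this response, and its targets serve vessel growth, glucose uptake, pH control and mitochondrial turnover.

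The sequences below show that core in regions open in both cell populations, each written on the strand of its gene with every ACGTG or GCGTG match, on either strand, in capitals. The promoter examples of Hif1a, Bnip3, Ndrg1 and Bhlhe40 lie upstream of the TSS at 105, 33, 10 and 184 bp (the match nearest the TSS or, for Bhlhe40, its farther match). The other examples lie in distal regions that ranked high in both lists or, for Adm, held the core more than once.
Hif1a promoter, chr12:73907769-73907828: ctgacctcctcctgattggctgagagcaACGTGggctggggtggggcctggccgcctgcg
Bnip3 promoter, chr7:138909509-138909568: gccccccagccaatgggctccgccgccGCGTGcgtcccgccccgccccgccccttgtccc
Ndrg1 promoter, chr15:66969641-66969700: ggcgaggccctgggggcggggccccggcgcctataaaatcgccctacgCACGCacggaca
Bhlhe40 promoter, chr6:108660440-108660499: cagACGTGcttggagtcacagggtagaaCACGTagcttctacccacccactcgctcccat
Egln3 intron, chr12:54192087-54192146: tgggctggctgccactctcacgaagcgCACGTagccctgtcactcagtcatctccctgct
Epas1 upstream, chr17:86732319-86732378: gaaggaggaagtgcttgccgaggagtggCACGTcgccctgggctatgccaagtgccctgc
Vegfa downstream, chr17:46004313-46004372: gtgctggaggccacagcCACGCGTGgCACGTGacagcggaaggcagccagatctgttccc
Adm downstream, chr7:110630371-110630430: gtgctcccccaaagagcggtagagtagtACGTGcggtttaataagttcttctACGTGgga

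Both lists held 131 of the 212 regions, while 22 were Dll1+ only and 59 Dll1- only (called in that list and not in the other). The Dll1+ only share was 10.4% (95% Wilson interval, counting error only, 6.95 to 15.2), beside 9.01% of all union regions. The Dll1- only share was 27.8% (22.2 to 34.2), beside 24.6% of all union regions. Both shares were thus close to the series as a whole. The members' regions in 1 list were small and weak, with a median width of 315.5 bp in Dll1+ only and 307 bp in Dll1- only regions against 580 bp in shared ones. Their median best percentile was 28.2 and 24.5, against 72.8 for shared regions. The same held over all union regions, with median widths of 299 and 292 bp against 568 bp. Median best percentiles there were 29.9 and 33.1 against 74.5.

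**Figure D1:**
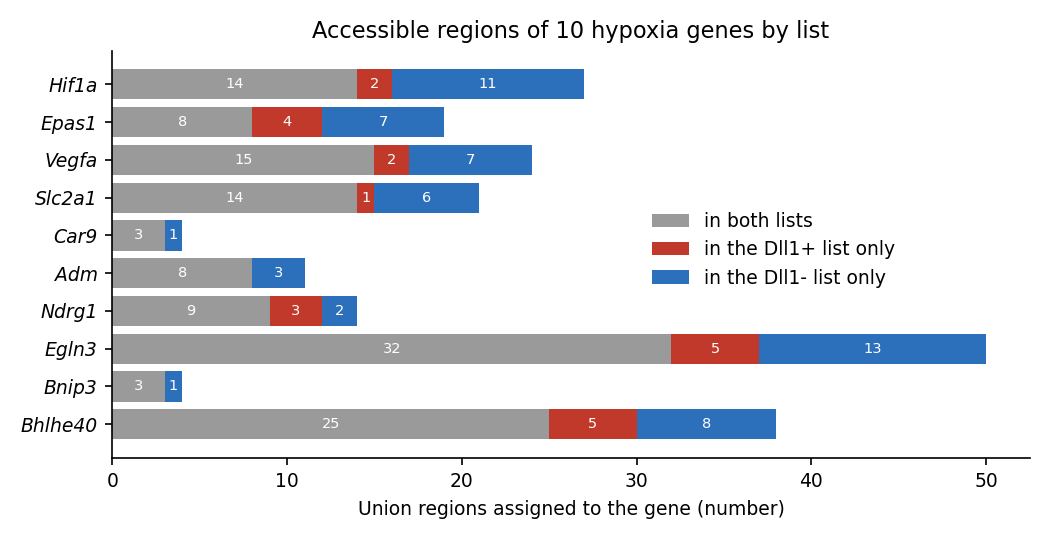
Number of union regions assigned to each of the 10 genes, split into regions in both lists (grey), Dll1+ only (red) and Dll1- only (blue). Egln3 had the most regions, 50, and Car9 and Bnip3 the fewest, 4 each. Adm (11 regions), Car9 and Bnip3 had none that was Dll1+ only, beside a share of 9.01% over all union regions.

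Among the 131 shared regions, the median rank difference was -2.92 points (95% interval of the median -5.45 to -0.886), beside -1.66 points over all 79153 shared regions. Intervals of a median, here and for promoters, treat regions as independent, which neighbors at 1 locus are not. A shift toward Dll1+ was called in 6, or 4.58%, beside a background of 6.37%. A shift toward Dll1- was called in 17, or 13.0%, beside 11.0%. The 17 lay at Hif1a (5), Vegfa (4), Egln3 (3), Epas1 (2), Slc2a1, Ndrg1 and Bhlhe40 (1 each), and the 6 at Egln3 (3), Hif1a (2) and Slc2a1 (1). No region of Adm, Car9 or Bnip3 was shifted by rank either way.

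Reads at the strongest summit gave a second view. Each Dll1+ to Dll1- ratio of reads was divided by its median over all shared regions, 0.614, and a ratio of 1.5-fold or more either way was called. By this centred ratio, 10 of the 131 regions (7.63%) were higher in Dll1+ and 22 (16.8%) higher in Dll1-, beside 12.5% and 12.3% of all shared regions. The balance depended on the scaling. When the ratio was divided by that of the genome-wide backgrounds, 23 were higher in Dll1+ and 18 in Dll1-, beside 23.6% and 6.21% of all shared regions. Statements on direction below use ranks and the centred ratio.

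**Figure D2:**
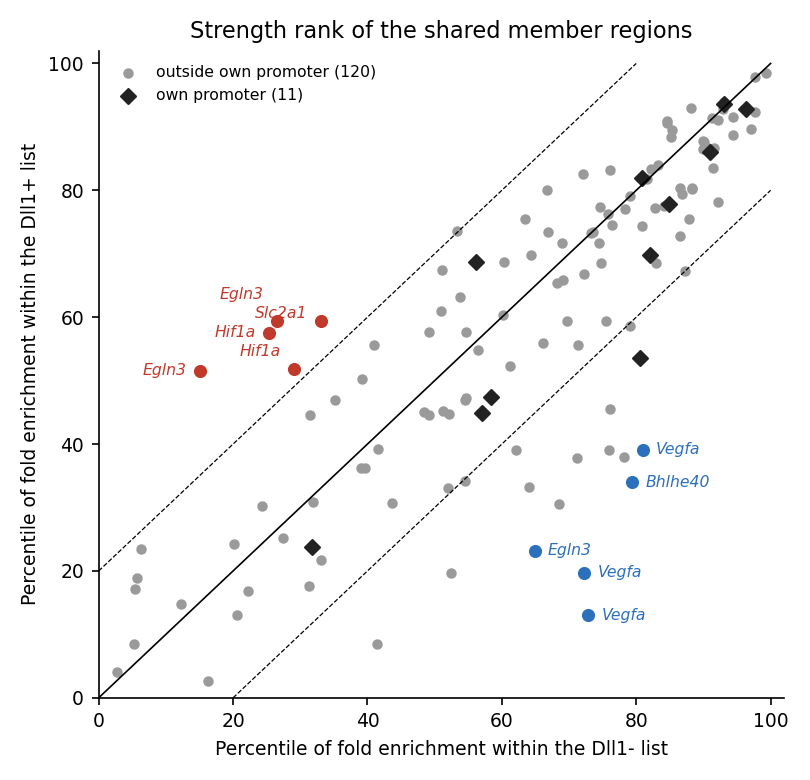
Each point is 1 of the 131 shared regions, placed by its percentile of fold enrichment in Dll1- (x axis) and in Dll1+ (y axis), with black diamonds for the 11 promoter regions of the genes themselves. The solid line marks equal rank and the dashed lines a difference of 20 points. The 5 regions farthest toward Dll1- (blue) and toward Dll1+ (red) are named by gene, and 108 of the 131 points lie between the dashed lines.

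A promoter region was one that overlapped the window from 1000 bp before a TSS to 100 bp after it. All 10 genes had one in both lists, as had 13086 of the 21840 protein-coding genes annotated. There were 11 such regions, since Hif1a had 2, at separate start sites. Promoter rank differences had a median of -7.03 points (-12.2 to 1.04), beside -1.82 over all shared promoter regions. Their centred read ratio had a median of 1.00 (0.794 to 1.25), beside 0.961, so the lean of the ranks was not seen in the reads. Of the 11, 1 passed 20 points, the upstream start site of Hif1a. Within either list the genes differed more than the lists did, from percentile 23.7 at Car9 to 93.7 at Egln3 in Dll1+ cells.

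**Figure D3:**
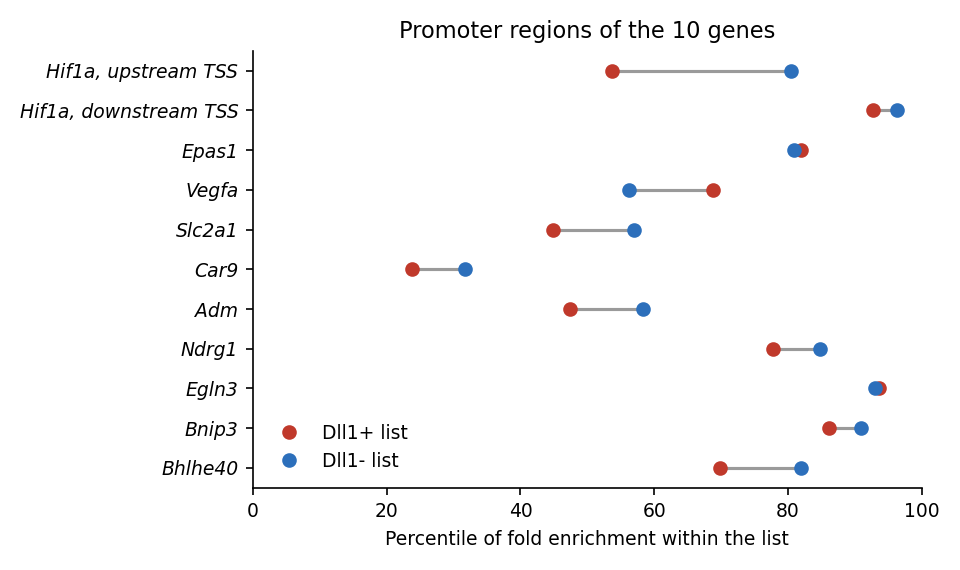
Percentile of fold enrichment of the 11 promoter regions among Dll1+ rows (red) and among Dll1- rows (blue), 1 value per list without error. The Hif1a upstream start site shows the widest gap, 53.6 against 80.5, and Vegfa the largest difference toward Dll1+, 68.7 against 56.2.

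Hif1a encodes the broadly expressed alpha subunit of HIF and lies on chr12:73901375-73947530, plus strand. Its downstream start site was among the strong promoters, with 233 reads in Dll1+ and 478 in Dll1- (percentiles 92.8 and 96.3). The upstream start site held 27 reads in Dll1+ and 79 in Dll1- (percentiles 53.6 and 80.5), a difference of -26.9 points and a centred ratio of 0.557 (exact Poisson interval, counting error only, 0.346 to 0.872). The gene had 27 regions, and its Dll1- only share was 40.7% (24.5 to 59.3), beside 24.6% of all union regions, with 11 such regions against 2 in Dll1+ only. The count of 11 was 3 within 50 kb of the TSS, 3 with the nearest TSS of any gene type and 2 at or above the median fold. Among the stronger rows of each list it was 5, but these 5 are not a subset of the 11. They include regions called in both lists whose weaker Dll1+ rows were left out.

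These 11 lay together. Between 1 and 100 kb upstream of the first start site, 11 of 12 regions were in the Dll1- list only and the twelfth was shared but shifted by -32.7 points. Between 100 and 160 kb upstream, 10 of 12 regions were shared, 2 were Dll1+ only and 0 were Dll1- only. The limits of both stretches were chosen after the values had been seen. The strongest Dll1- only region, at chr12:73880358-73880920 in an intron of a non-coding transcript 20.7 kb upstream, had 90 reads and an 11.1-fold enrichment, at percentile 85.5. The next, 54.5 kb upstream, had 75 reads at percentile 66.8, and the other 9 were at or below percentile 43.2.

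Farther upstream, neighboring regions went opposite ways. The region 122 kb upstream held 36 reads in Dll1+ and 149 in Dll1- (percentiles 38.0 and 78.2, -40.2 points). The region at chr12:73781205-73781655, 120 kb upstream, held 42 and 47 reads (percentiles 57.6 and 25.3, 32.2 points), although its centred ratio of 1.46 had an interval of 0.937 to 2.26. The strongest region outside the promoter in both lists was in an intron of Prkch 145 kb upstream, with 270 reads in Dll1+ and 644 in Dll1-. It differed by -5.34 points (percentiles 92.3 and 97.6), with a centred ratio of 0.683 (0.591 to 0.789). Ranks this near the top leave little room for a difference in points. The strongest Dll1+ only region, 104 kb upstream, held 26 reads at percentile 25.3.

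Epas1 encodes the other main alpha subunit, best known in endothelium and in adaptation to chronic hypoxia, and lies on chr17:86753700-86833410, plus strand. Its promoter held 236 reads in Dll1+ and 322 in Dll1- (percentiles 81.9 and 80.9). The intergenic region 21.4 kb upstream whose core is shown above was the strongest region of all 10 genes, with a 20.9-fold enrichment in Dll1+ and 22.6-fold in Dll1- (percentiles 98.6 and 99.3). A shift toward Dll1- was called 9.81 kb upstream (21 against 70 reads, -36.9 points) and 23.0 kb downstream of the TSS, in an Epas1 intron with the palindrome CACGTG (24 against 92 reads, -33.4 points). Of 19 regions, 4 were Dll1+ only (21.1%, 8.51 to 43.3) and 7 Dll1- only (36.8%, 19.1 to 59.0), with both intervals including the shares of all union regions, 9.01% and 24.6%. The strongest of these, an intronic region 9.11 kb downstream in Dll1+ (25 reads, percentile 49.3) and a region 27.0 kb upstream in Dll1- (33 reads, percentile 39.1), were both below the median of their list.

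Egln3 encodes a HIF prolyl hydroxylase that is itself a HIF target and so dampens the response, and lies on chr12:54178981-54203860, minus strand. Its promoter was the one with the highest rank in Dll1+, with 289 reads in Dll1+ and 374 in Dll1- (percentiles 93.7 and 93.1, 0.603 points). The intronic region 11.6 kb downstream of the TSS, whose core is shown above, held 189 and 390 reads (percentiles 88.7 and 94.4). The strongest region outside the promoter was intergenic, 85.5 kb upstream, at percentiles 97.8 and 97.7. With 50 regions, Egln3 had more than 99.5% of the 17372 genes with any region. Only 13 of its regions lay within 50 kb of the TSS, and 14 lay inside Npas3, the neighboring gene for a nervous system transcription factor.

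The Egln3 locus held both the largest shifts toward Dll1+ and one of the largest toward Dll1-. In a Npas3 intron 357 kb downstream, chr12:53846221-53846844 held 26 reads in Dll1+ and 22 in Dll1- (percentiles 51.5 and 15.1, 36.4 points, centred ratio 1.93 with an interval of 1.05 to 3.56). A Npas3 region 367 kb downstream held 30 and 27 reads (32.8 points). Both rested on few reads. In the opposite direction, a non-coding exon 38.3 kb upstream held 16 reads in Dll1+ and 53 in Dll1- (-41.7 points). The strongest region in 1 list only was 77.2 kb downstream in Dll1+ (29 reads, percentile 57.5) and 233 kb downstream, in Npas3, in Dll1- (58 reads, percentile 69.0).

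**Figure D4:**
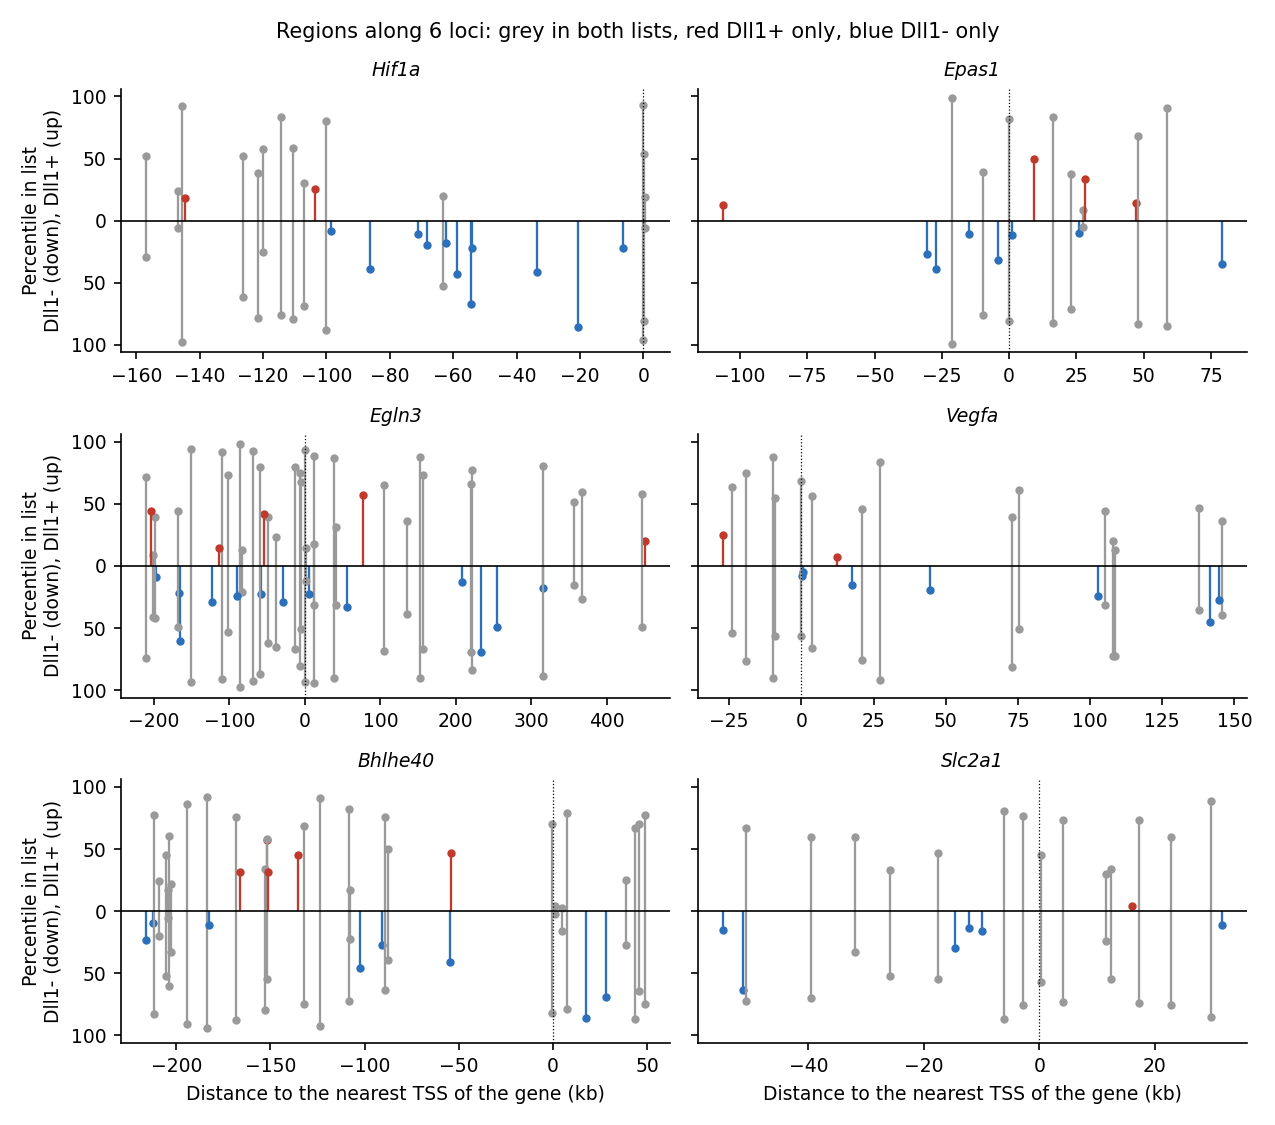
Regions of 6 genes by distance to the nearest TSS of the gene (x axis, kb, negative upstream). Bars run up to the percentile in the Dll1+ list and down to that in the Dll1- list; grey regions were in both lists, red in Dll1+ only and blue in Dll1- only. The blue run upstream of Hif1a covers 11 of 12 regions between 1 and 100 kb, and at Vegfa the grey bars near 108 kb downstream are short above the line and long below it.

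Vegfa, the main growth factor for new vessels and a classic HIF target, lies on chr17:46016993-46032369, minus strand. Its promoter held 174 reads in Dll1+ and 227 in Dll1- (percentiles 68.7 and 56.2), 12.5 points higher in Dll1+ with a centred ratio of 1.25 (1.02 to 1.53). This difference did not reach 20 points or 1.5-fold. The strongest region outside the promoter was 9.90 kb upstream in Dll1+ (percentile 87.5) and 27.2 kb downstream in Dll1- (percentile 91.4). The latter, which holds the cores printed above, had 70 reads in Dll1+ and 219 in Dll1-, a centred ratio of 0.521 (0.392 to 0.685).

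Downstream of Vegfa lay the largest rank differences among all 10 genes. The region chr17:45922648-45922968, 109 kb downstream in intergenic DNA, held 13 reads in Dll1+ and 86 in Dll1-, at percentiles 13.0 and 72.8. Its difference was -59.8 points, and centred reads were 4.06-fold higher in Dll1- (2.25 to 7.93). Its neighbor at chr17:45923303-45923725 held 15 and 86 reads (-52.5 points, 3.52-fold, 2.02 to 6.56). Regions 73.1 kb downstream (21 against 85 reads, -41.9 points) and nearer the gene (24 against 90 reads, -30.5 points) were shifted the same way. Between 20 and 110 kb downstream, 4 of the 7 shared regions were shifted toward Dll1-, 0 toward Dll1+, and 2 further regions were Dll1- only, in limits chosen after the values had been seen. Over the whole series, 11.0% of shared regions were shifted toward Dll1- and 6.37% toward Dll1+, and 24.6% of union regions were Dll1- only. The first 2 regions are neighbors at 1 locus and not independent of each other. Their summit sequences, 81 bases around the strongest summit, are shown because they carried the largest difference, and the second holds a GCGTG match on the other strand.
Vegfa downstream, chr17:45922763-45922843: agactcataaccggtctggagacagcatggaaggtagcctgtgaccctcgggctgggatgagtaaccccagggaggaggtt
Vegfa downstream, chr17:45923470-45923550: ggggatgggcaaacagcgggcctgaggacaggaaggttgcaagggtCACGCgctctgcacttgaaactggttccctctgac

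Regions of Vegfa in 1 list only were weak. The strongest was 27.2 kb upstream in Dll1+ (20 reads, percentile 25.2) and 142 kb downstream in Dll1- (46 reads, percentile 44.8).

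Adm encodes adrenomedullin, a vasodilator peptide strongly induced by HIF, and lies on chr7:110627661-110629820, plus strand. Its promoter held 107 reads in Dll1+ and 199 in Dll1- (percentiles 47.4 and 58.3). The region 2.87 kb downstream with the cores shown above held 103 and 169 reads (percentiles 45.2 and 51.2). All 8 shared regions differed by less than 20 points, from -15.7 to 8.40. By reads, the region 10.8 kb downstream was called as higher in Dll1-, with a centred ratio of 0.627 (0.424 to 0.911). The leading regions were 27.8 kb downstream in Dll1+ (percentile 90.9) and 41.2 kb downstream in Dll1- (percentile 91.6), each open in both lists. The strongest of its 3 Dll1- only regions, 31.0 kb downstream, held 65 reads at percentile 53.9.

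Slc2a1 encodes the glucose transporter GLUT1, lies on chr4:119108711-119137983, plus strand, with 7 separate regions inside the gene. Its promoter held 179 reads in Dll1+ and 287 in Dll1-, and ranked at percentiles 44.9 and 57.0. Its local background was 9.15 times the genome-wide level in Dll1+ and 6.95 times in Dll1-. The strongest region outside the promoter was 29.8 kb downstream in Dll1+ (percentile 88.3) and 6.20 kb upstream in Dll1- (percentile 86.5). A shift toward Dll1+ was called 32.0 kb upstream, with 30 reads in each list (26.2 points), although its centred ratio of 1.63 had an interval of 0.949 to 2.80. A shift toward Dll1- was called 12.5 kb downstream (105 against 233 reads, -20.4 points). In both of these regions the strongest summits of the lists lay apart, by 113 bp in the upstream and 232 bp in the downstream one, so different summits were compared, as in 5 of the 131 shared regions at a limit of 100 bp. The strongest Dll1- only region, 51.4 kb upstream, held 63 reads (percentile 63.6), and the lone Dll1+ only region was at percentile 3.99.

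Car9 encodes the tumor-associated carbonic anhydrase that controls pH outside the cell, is among the most oxygen-dependent HIF targets, and lies on chr4:43506966-43513729, plus strand. Its promoter had the lowest rank of the 11 in both lists, with 60 reads in Dll1+ and 87 in Dll1- (3.64-fold and 3.74-fold, percentiles 23.7 and 31.8). The ACGTG core of the promoter region lay 44 bp downstream of the TSS, and a match to the AP-1 heptamer TGAGTCA lay 14 bp upstream. The 60 bases before the TSS are printed with that heptamer in capitals, since no other member promoter had it within 100 bp of its strongest summit.
Car9 promoter, chr4:43506906-43506965: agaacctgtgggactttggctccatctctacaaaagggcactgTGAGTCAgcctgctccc
The body of the gene was more accessible than its start. An intronic region 1.90 kb downstream held 162 reads in Dll1+ and 211 in Dll1- (percentiles 77.1 and 78.4). By reads, the region 7.74 kb downstream was called, 1.68-fold higher in Dll1+ (1.02 to 2.75). The strongest summits of the 2 lists lay 200 bp apart there, so different summits were compared. The lone region in 1 list, Dll1- only and 2.48 kb upstream, was at percentile 14.0.

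Bnip3 encodes a mitochondrial protein that promotes mitophagy, and lies on chr7:138890836-138909506, minus strand. Its promoter held 155 reads in Dll1+ and 293 in Dll1- (percentiles 86.1 and 91.0). The other 2 shared regions, 10.1 kb upstream and 24.0 kb downstream of the TSS, had nearly the same rank in both lists, at 84.0 and 83.2 and at 81.8 and 81.6. A Dll1- only region 4.61 kb upstream was at percentile 26.9. Like Car9 and Adm, Bnip3 had no Dll1+ only region and no region shifted by rank. With 4, 4 and 11 regions at Bnip3, Car9 and Adm, the Dll1+ only share could be up to 49.0%, 49.0% and 25.9%, beside 9.01% of all union regions. Among the stronger rows of each list, Car9 had 1 region counted as Dll1+ only. That was the region 7.74 kb downstream, called in both lists (percentiles 55.7 and 41.0), whose weaker Dll1- rows were left out.

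Ndrg1 encodes a stress-induced protein associated with differentiation and metastasis control, and lies on chr15:66929318-66969640, minus strand. Its promoter held 305 reads in Dll1+ and 495 in Dll1- (percentiles 77.8 and 84.8). Of its 14 regions, 3 were Dll1+ only (21.4%, 7.57 to 47.6) and 2 Dll1- only (14.3%, 4.01 to 39.9), beside 9.01% and 24.6% of all union regions, which both intervals include. However, among the stronger rows of each list the counts were 0 and 2, and with the nearest TSS of any gene type 1 and 1. The 2 among the stronger rows were regions called in both lists when all rows were used. The strongest region outside the promoter was 70.0 kb upstream in Dll1+ (percentile 93.0) and 28.9 kb upstream in Dll1- (percentile 97.1). The latter held 67 reads in Dll1+ and 217 in Dll1-, a centred ratio of 0.503 (0.377 to 0.665) with a rank difference of -7.42 points. A shift of -30.9 points was called in an intron 19.3 kb downstream, where reads were 56 and 99 and the centred ratio of 0.922 had an interval of 0.652 to 1.29. Regions in 1 list were weak, the strongest at percentile 41.8 in Dll1+ and 33.1 in Dll1-.

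Bhlhe40 encodes a basic helix-loop-helix repressor induced by HIF and by the circadian clock, and lies on chr6:108660629-108666925, plus strand. Its promoter had the most reads of the 10, with 407 in Dll1+ and 796 in Dll1-, above 94.4% and 97.4% of shared promoter regions or equal to them. Its fold enrichment ranked at percentiles 69.8 and 82.0, over a local background of 13.1 and 10.9 times the genome-wide level. Of its 38 regions, 20 lay inside Itpr1, the upstream gene for a calcium channel of the endoplasmic reticulum. The strongest region outside the promoter in both lists was one of these, 184 kb upstream, at percentiles 91.5 and 94.4.

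Bhlhe40 also had the strongest region in 1 list of all 10 genes. The intergenic region chr6:108677650-108678585, 17.2 kb downstream, held 100 reads and an 11.3-fold enrichment in Dll1- (percentile 86.0) and was not called in Dll1+. A second Dll1- only region 27.8 kb downstream held 64 reads (percentile 69.0), while regions on either side of both, 7.30 and 38.9 kb downstream, were shared and differed by 0.02 and -2.38 points. Inside Itpr1, a region 153 kb upstream held 20 reads in Dll1+ and 81 in Dll1- (-45.4 points, 2.49-fold higher in Dll1-, 1.51 to 4.28). About 1 kb away, a region 152 kb upstream was Dll1+ only, with 30 reads at percentile 57.5, and beside it another region was shared and differed by 3.01 points. A region 43.7 kb downstream (144 against 395 reads, percentiles 67.2 and 87.2) fell just short of the 20-point call, with a centred ratio of 0.594 (0.487 to 0.721).

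Most regions found in 1 list were near the lower end of that list. At or above the median fold of their own list were 2 Dll1+ only regions, at Bhlhe40 and Egln3, or 0.943% of the 212 member regions, beside 1.39% of all union regions. Of the 22 Dll1+ only regions this was 9.09%, beside 15.4% of all Dll1+ only regions. On the Dll1- side there were 8, namely 2 each at Bhlhe40, Hif1a and Egln3 and 1 each at Slc2a1 and Adm. They made up 3.77% of the member regions, beside 5.49% of all union regions, and 13.6% of the 59 Dll1- only regions, beside 22.3% of all Dll1- only regions. Neither share of the members was above that of all regions. Vegfa, Epas1, Ndrg1, Car9 and Bnip3 had none. Of these strong regions, 5 of 8 on the Dll1- side and 0 of 2 on the Dll1+ side had an AP-1 heptamer, TGAGTCA or TGACTCA on either strand, within 100 bp of the strongest summit. Among all strong regions in 1 list the share was 42.2% in Dll1- and 3.02% in Dll1+, and the interval of 5 of 8 (62.5%, 30.6 to 86.3) included the former. AP-1 is the Fos and Jun family of stress and growth-responsive transcription factors. The summits of 3 strong Dll1- only regions, of the shifted Itpr1 region and, for contrast, of the strongest Dll1+ only region are printed with heptamers in capitals.
Hif1a, Dll1- only, chr12:73880535-73880615: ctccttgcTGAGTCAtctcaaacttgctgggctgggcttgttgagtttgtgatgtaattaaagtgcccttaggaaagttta
Bhlhe40, Dll1- only, chr6:108677896-108677976: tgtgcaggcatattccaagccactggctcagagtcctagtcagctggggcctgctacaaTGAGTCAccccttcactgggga
Egln3, Dll1- only, chr12:53970918-53970998: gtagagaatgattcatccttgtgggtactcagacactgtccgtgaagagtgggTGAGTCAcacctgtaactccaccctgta
Bhlhe40, higher in Dll1-, chr6:108507516-108507596: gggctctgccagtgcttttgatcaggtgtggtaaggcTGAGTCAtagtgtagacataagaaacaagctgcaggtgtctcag
Bhlhe40, Dll1+ only, chr6:108508493-108508573: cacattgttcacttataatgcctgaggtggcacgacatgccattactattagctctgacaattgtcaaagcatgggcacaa

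Over all members, the AP-1 heptamer was in the windows of 20 of 59 Dll1- only regions (33.9%, 23.1 to 46.6) and 0 of 22 Dll1+ only regions, which allows a share of up to 13.6% by the limit of 3 counts and 14.9% by the Wilson interval. Outside promoters, the same windows of all union regions held it in 31.0% of Dll1- only, 4.48% of Dll1+ only and 17.5% of shared regions. The member genes thus showed the split seen over all regions. Among shared regions shifted toward Dll1-, 3 of 17 had it (17.6%, 6.19 to 41.0), beside 34.9% of all such regions. Both Vegfa regions near 108 kb lacked it.

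For the HIF core, the shares of the classes had overlapping intervals. Either form, ACGTG or GCGTG, was in 68 of the 212 windows (32.1%, 26.2 to 38.6), beside 26.3% of all union regions. Outside promoters it was in 34.2% of shared (26.3 to 43.0), 22.7% of Dll1+ only (10.1 to 43.4) and 23.7% of Dll1- only regions (14.7 to 36.0), beside 23.3%, 18.5% and 22.8% of all such regions. ACGTG alone was within 100 bp of the strongest summit in 25 of 120 shared regions outside promoters (20.8%, 14.5 to 28.9), 3 of 22 Dll1+ only (13.6%, 4.75 to 33.3) and 9 of 59 Dll1- only regions (15.3%, 8.24 to 26.5). The shares over all union regions outside promoters were 11.4%, 9.24% and 11.8%. Over all 212 windows it was present in 42 (19.8%, 15.0 to 25.7), beside 12.1% of all union regions. GCGTG was present in 36 (17.0%), beside 16.7%. The palindrome CACGTG, which contains ACGTG on both strands, was present in 14 windows (6.60%) beside 3.97%, and is a site that Bhlhe40 and other basic helix-loop-helix proteins also bind. The median GC content of the windows was 53.2% in shared member regions and 50.7% in all shared regions. Neighboring regions share a locus and are not independent, and a match is not evidence of binding.

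**Figure D5:**
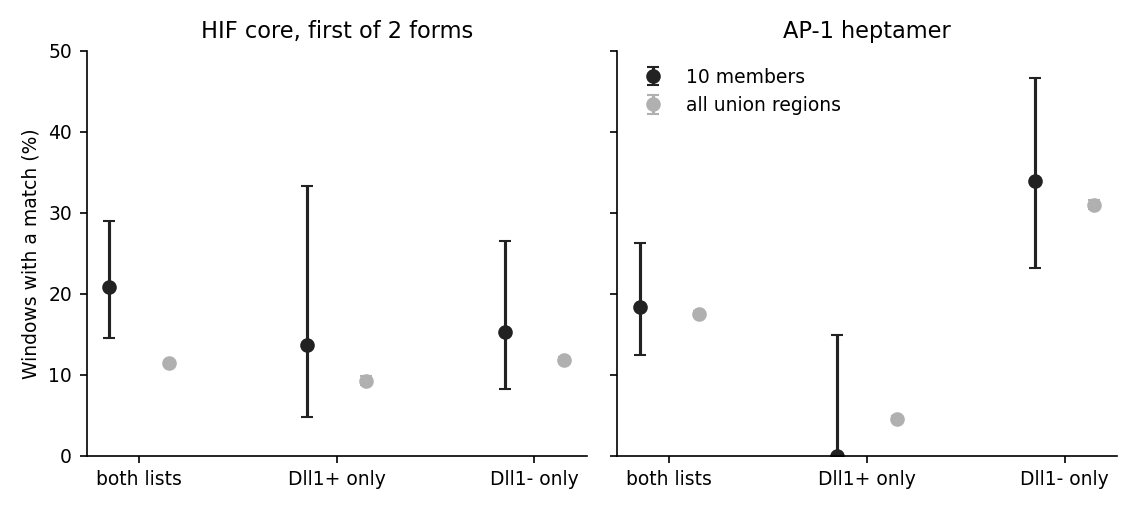
Percent of windows outside promoters (201 bp around the strongest summit) that held the HIF core ACGTG (left) or the AP-1 heptamer (right), for regions in both lists, Dll1+ only and Dll1- only. Black points are the 10 genes and grey points all union regions, with 95% Wilson intervals. The AP-1 share of the genes' regions was 33.9% in Dll1- only and 0 in Dll1+ only regions, and ACGTG alone was in 20.8% of their regions in both lists.

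Another 44 genes of the hypoxia pathway, among them Arnt, Vhl and glycolytic enzymes, had 422 regions. Of these, 306 were shared (72.5%), 41 Dll1+ only (9.72%, 7.24 to 12.9) and 75 Dll1- only (17.8%, 14.4 to 21.7). Over all union regions the shares were 66.4%, 9.01% and 24.6%, and the Dll1- only share of the 10 genes was 27.8%. A shift toward Dll1+ was called in 18 shared regions (5.88%) and toward Dll1- in 34 (11.1%), with a median of -2.32 points. The values over all shared regions were close, at 6.37%, 11.0% and -1.66 points. A shared promoter region was present at 42 of the 44 genes, all but Slc2a3 and Angptl4, beside 13086 of the 21840 protein-coding genes. Cited2, which encodes a HIF-induced competitor for the coactivator p300, received 86 regions and so the most in 1 list, 11 Dll1+ only (12.8%) and 13 Dll1- only (15.1%), beside 9.01% and 24.6% of all union regions. Next in Dll1+ only regions were Edn1, which encodes the vasoconstrictor endothelin, the glycolytic regulator Pfkfb3 and the collagen-modifying enzyme gene Plod2, with 3 each of 27, 38 and 21 regions. Next in Dll1- only regions were Pfkfb3 and Plod2, with 8 each.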

How the data were processed

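ATAC-seq libraries were processed by the authors with the ENCODE ATAC-seq pipeline, run jointly on a group's replicates, and 1 pooled peak list per group was deposited. Aligner, peak caller and thresholds are not given in the sources used here. The build was mm10 (GRCm38) per the submitters' processing notes. In the deposited lists, fold enrichment is a ratio of summit reads to local background, and −log10 p-value is the authors' own. The deposited −log10 q-value and score were not used. Summit reads and background were recovered from fold and p-value under a Poisson model, with fold as reads plus 1 over background plus 1, for all but 1 row (tolerance 0.01), and the steps were tested on simulated data.

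Overlapping or touching rows were merged (Python 3.11.15, pandas 2.3.3, SciPy 1.17.1). Genes came from GENCODE M21 (basic) and sequence from the RefSeq GRCm38 genome, with positions counted from 1. Strength ranks used a region's highest fold. Intervals (95%) of shares and of the read ratio of a region cover counting error only, because sequenced reads lack molecular identifiers and regions are not replicates. Intervals of a median reflect the spread between regions and treat regions as independent. Pooled lists allowed no test. The rule named each gene's promoter, the strongest region outside it in each list, the strongest in 1 list only, the 5 largest rank differences each way and, of the other hypoxia genes, the 3 with most regions in 1 list. Other regions named were chosen after their values were seen. Members and lists were chosen with earlier results of these data known. Counts per sample were not analysed here.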

Additional observations from a re-analysis of the deposited data

How the results depend on the processing

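No paired analysis was possible because each group is 1 pooled list, and for the same reason no replicate could be left out. With only the stronger rows of each list, 77 member regions were shared, 10 Dll1+ only and 29 Dll1- only. Under that setting, a region called in both lists counts as in 1 list where its rows in the other list were left out as weak. Among regions in 1 list, the Dll1+ only share was then 25.6% for members (27.2% with all rows) and 31.0% for all union regions (26.8% with all rows), of which 9.44% were Dll1+ only and 21.04% Dll1- only. With regions in 1 list required to reach its median fold, 2 were Dll1+ only and 8 Dll1- only. Within 50 kb of the TSS, 71 were shared, 9 Dll1+ only and 27 Dll1- only (of all union regions at that distance, 7.87% were Dll1+ only and 23.6% Dll1- only), and 1 and 8 shared regions were shifted toward Dll1+ and Dll1-. The shares of all shared regions shifted at that distance are not given. With the nearest TSS of any gene type, which gives many distal regions to non-coding genes, 37 were shared, 3 Dll1+ only and 15 Dll1- only, a Dll1+ only share of 16.7% among regions in 1 list, against 27.2%. Over all union regions that share is 26.8% under either assignment. Equal row numbers (126, 27 and 51), Dll1- reads scaled to the Dll1+ depth (131, 22 and 59) and any pair of summits within 100 bp (129 shared) stayed within 1.5 times. The scaling dropped only 2415 of the 148923 Dll1- rows and did not call peaks again at lower depth. Its unchanged counts therefore cannot show how depth affects the lists. Ranking among merged regions moved the median rank difference to -5.79 points, and that of all shared regions from -1.66 to -3.69. Among shared regions above the median of both lists, 1 and 2 were shifted, and at 30 points 3 were shifted toward Dll1+ and 13 toward Dll1-. At 2-fold, 0 centred read ratios were higher in Dll1+ and 11 in Dll1-, and scaled by the genome-wide background 23 were higher in Dll1+. For the median, 30-point and 2-fold cuts, the shares over all shared regions are not given, so no result about the members is read from these counts. A promoter window of 2500 bp each side held 21 regions, and a 50 bp window around the summit held a HIF core in 18.9% of regions, against 32.1% (all union regions, 15.3% against 26.3%). The other values over all members stayed within 1.5 times or their interval. Counts for single genes were less stable: 54 moved by more than 1.5 times and 66 did not. With the stronger rows, Dll1+ only regions went from 3 to 0 at Ndrg1, from 4 to 0 at Epas1 and from 0 to 1 at Car9, and with equal row numbers from 2 to 4 at Hif1a. The regions added at Car9 and Hif1a were in both lists when all rows were used. Low read counts limit the weaker regions: for 26 against 22 reads, the centred ratio of 1.93 had an interval of 1.05 to 3.56.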
